A study of Danio rerio with 23 samples.

Results

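The genes described here are 30 zebrafish genes whose products are typical of the liver. They encode proteins that hepatocytes secrete into the plasma, enzymes of hepatic amino acid, urate, urea and bile acid metabolism, and the lipid-binding protein Fabp10a. They were chosen by name, with earlier results of these data known, and all 30 were found among the 31902 features of the count files. A total of 8 members act in lipid transport (fabp10a, apoa1a, apoa1b, apoa2, apobb.1, apoba, apoc1 and apoc2), 7 are plasma carriers or adhesive proteins (tfa, ambp, ttr, cp, gc and both vitronectin genes), 8 belong to clotting, protease inhibition and complement (fga, fgb, fgg, f2, serpina1, serpinc1, c3a.1 and plg) and 7 are enzymes (cps1, uox, tdo2a, hpda, hgd, fah and cyp7a1). The vitronectin genes vtna and vtnb are given by their gene identifiers, ENSDARG00000053831 and ENSDARG00000055388, because the table of names does not tell which is which. The members apoba and tdo2a carry the names APOB and TDO2 in that table.

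Hepatocytes arise from the foregut endoderm and, once specified, secrete most plasma proteins, among them the apolipoproteins of circulating lipoproteins, the chains of fibrinogen, complement components and metal carriers. Several of these genes are not exclusive to the liver: apolipoproteins are also made by enterocytes and by the yolk syncytial layer of the fish embryo, and complement C3 by epithelia. In zebrafish, fabp10a is the usual hepatocyte marker, and its promoter drives the common liver reporters.

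The 23 libraries were bulk RNA-seq of sorted cells from zebrafish of the AB strain. The gain-of-function experiment held 16 libraries of dsred+ cells sorted from the dissected trunks of about 150 embryos carrying Tg(sox17:dsred), an endodermal reporter, at 52 hpf. Beside the reporter, the embryos carried a transgene under the heat-inducible hsp70l promoter for Ascl1a (n = 3), Neurod1 (n = 4), Neurod1 without the ultra-conserved element (delUCE, n = 3) or Neurod1 without the larger evolutionarily conserved domain (delECD, n = 3), or no further transgene (control, n = 3). All 5 groups, controls included, received heat shocks, the first at 38 hpf and the second at 48 hpf. The heat-inducible promoter is not restricted to endoderm. The other 7 libraries were enteroendocrine cells (EECs), the hormone-secreting cells of the gut epithelium, sorted as GFP+ cells of Tg(pax6b:GFP) from the guts of about 200 larvae at 4 dpf, without heat shock and with the pancreas avoided in the dissection, from neurod1delUCE-/- larvae (n = 4), which lack that element in their own neurod1, and wild-type larvae (n = 3). Each library pools animals, and nothing states that replicates came from separate clutches, so the p-values measure only the spread between these libraries. In such bulk samples, fewer cells of a type and less RNA per cell cannot be told apart.

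Library totals were 8364374 to 22301304 counts in endoderm and 8626863 to 15894943 in EECs, where 3 counts, the floor used for detection, equal 0.135 to 0.359 CPM and 0.189 to 0.348 CPM. The ascl1a reading frame was counted at 33.2, 244 and 28.8 CPM in Ascl1a endoderm and at no more than 2.85 CPM in the other 13 endoderm libraries. The neurod1 region of the transgene was counted at 20.9, 38.9, 51.0 and 21.2 CPM with Neurod1, at 1346, 1.24 and 1.67 CPM with delUCE, at 7.54, 3.00 and 6.56 CPM with delECD and at 1.303, 0.248 and 0.124 CPM in controls, so delUCE replicate 2 lay below the highest control and replicate 3 just above it. That feature was also counted in Ascl1a endoderm, at 22.4 to 164 CPM. It gives no full check of the labels, since reads shared with the endogenous gene were left out by the authors. Among the markers of other cell types, the summed level of 5 muscle genes ranged over the endoderm libraries between 51.2 and 19537 CPM, highest in control replicate 3, and that of 3 erythrocyte genes between 81.2 and 3417 CPM, while 6 skin keratin and epidermal genes summed to 1585 to 9175 CPM, again highest in control replicate 3. No member passed in a transgene comparison without that control either. The 6 yolk syncytial layer genes summed to 35.8 to 180 CPM, 12 enterocyte genes to 627 to 2537 CPM, 14 endoderm and gut epithelium genes to 2298 to 7301 CPM, 6 bile duct genes to 764 to 3378 CPM, 9 exocrine pancreas genes to 1.96 to 35.8 CPM and 5 endothelial and leukocyte genes to 50.1 to 329 CPM. In the EEC libraries, muscle, erythrocyte, and endothelial and leukocyte genes summed to at most 36.1, 1.48 and 14.2 CPM. Wild-type EEC replicate 2 stood apart from all other EEC libraries for the members, as described below with and without it.

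**Figure D1:**
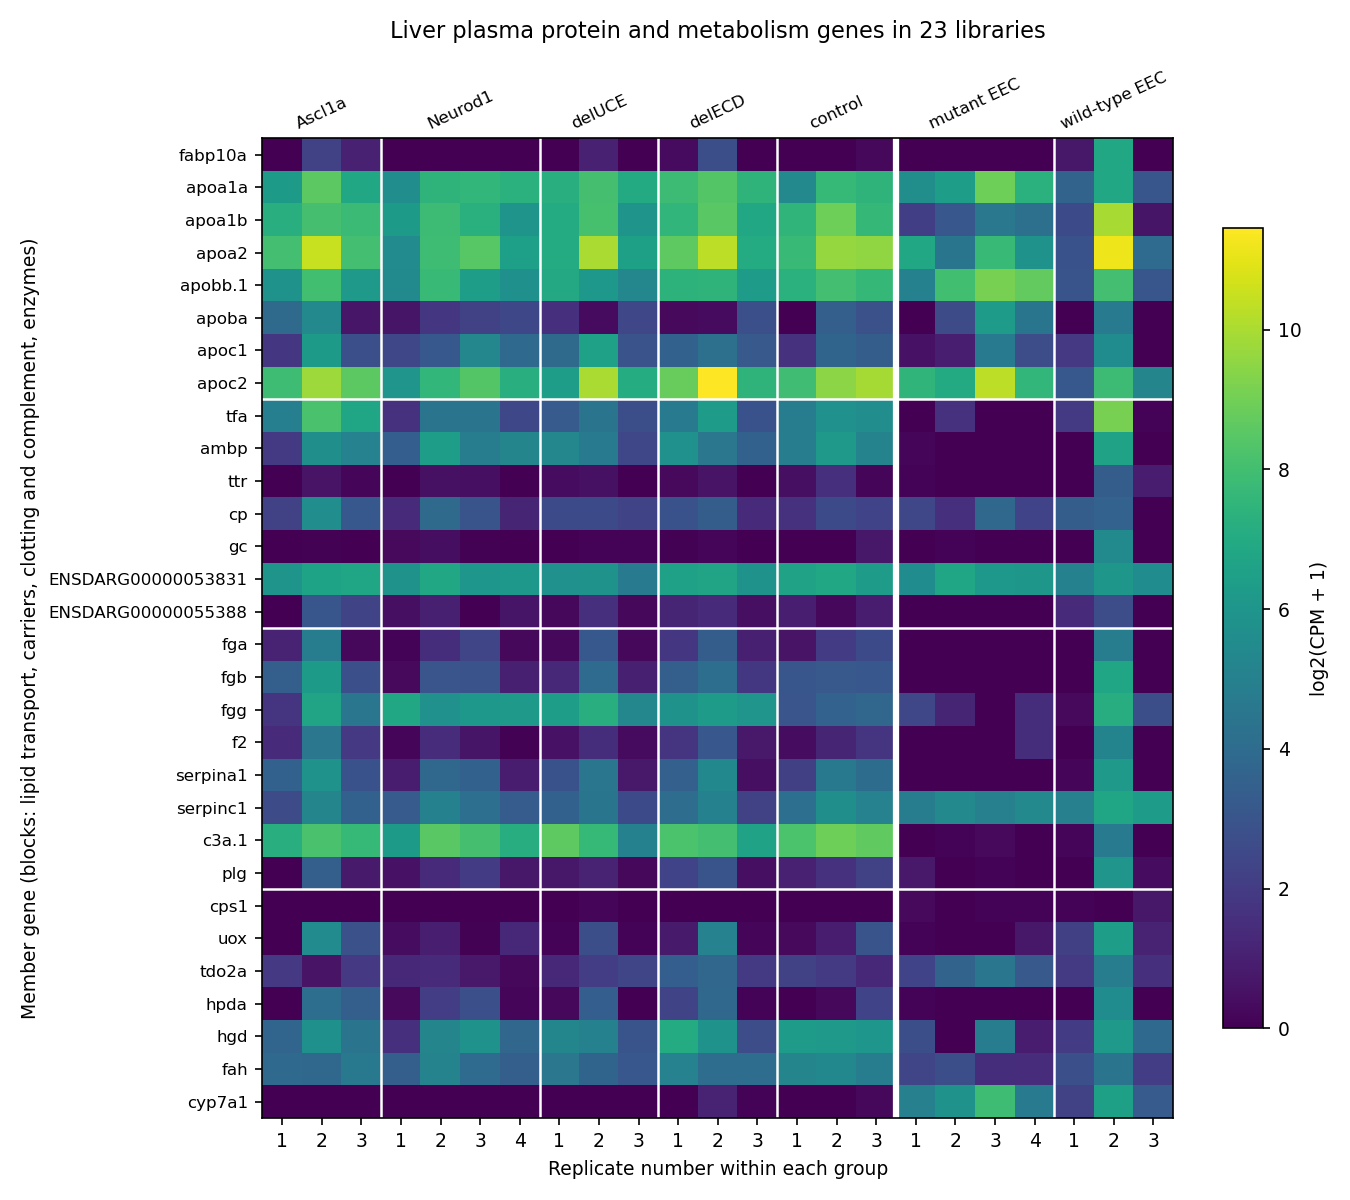
Level of each of the 30 members in each of the 23 libraries, as log2(CPM + 1), with genes in blocks by role and libraries by group. In endoderm the apolipoproteins and c3a.1 have the brightest cells, and in the EEC libraries wild-type replicate 2 stands out, with 29 of 30 members above 3 counts.

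In the 52 hpf endoderm, members were detected in every library but at very unequal levels. Of the 30 members, 16 exceeded 3 counts in all 16 endoderm libraries, 13 did so in some, and cps1, which encodes the carbamoyl phosphate synthetase of the urea cycle, did so in none, with at most 2 counts. The number of members above 3 counts in a library lay between 19, in delUCE replicate 3, and 28, in delECD replicate 2. Together the members summed to 566 to 5783 CPM after TMM normalisation, with a median sum of 1688 CPM. By library totals alone, the sums ran from 584 CPM in delUCE replicate 3 to 4160 CPM in Ascl1a replicate 2. In delECD replicate 2, the highest after TMM, the sum by library total was 4009 CPM. A share of reads depends on transcript length and on RNA per cell, and no share of hepatocytes follows from it. The hepatocyte marker fabp10a was at 0 counts in 10 of the 16 libraries and reached 5.76 CPM in delECD replicate 2 and 3.74 CPM in Ascl1a replicate 2.

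The summed level of the members was 1099, 4595 and 1637 CPM in Ascl1a endoderm, 566, 1846, 1739 and 883 CPM with Neurod1, 1297, 3335 and 603 CPM with delUCE, 2196, 5783 and 951 CPM with delECD and 1461, 3418 and 3046 CPM in controls. The means were 2444 ± 1882, 1258 ± 631, 1745 ± 1420, 2976 ± 2509 and 2641 ± 1039 CPM in the same order (SD, n = 3, 4, 3, 3 and 3). Every group overlapped the controls, and the library with the highest sum exceeded the lowest of its own group by 2.34-fold in controls and by up to 6.08-fold, in delECD. Replicate 2 held the highest sum in each of the 5 groups. Counted by gene, replicate 2 was highest for 24 of 27 members in Ascl1a endoderm, 15 of 27 with Neurod1, 19 of 27 with delUCE, 23 of 28 with delECD and 16 of 27 in controls, whereas it was highest for 31.8%, 23.6%, 39.4%, 37.9% and 28.6% of all tested genes. The members varied between replicates more than most genes: the median within-group SD of log2(CPM + 1) was 1.15 over the 26 members tested in endoderm, against 0.54 over the 18910 genes tested. Lipid transport genes made up 48.9% to 86.2% of the members' reads, and apoa2 with apoc2 alone 16.8% to 70.5%.

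**Figure D2:**
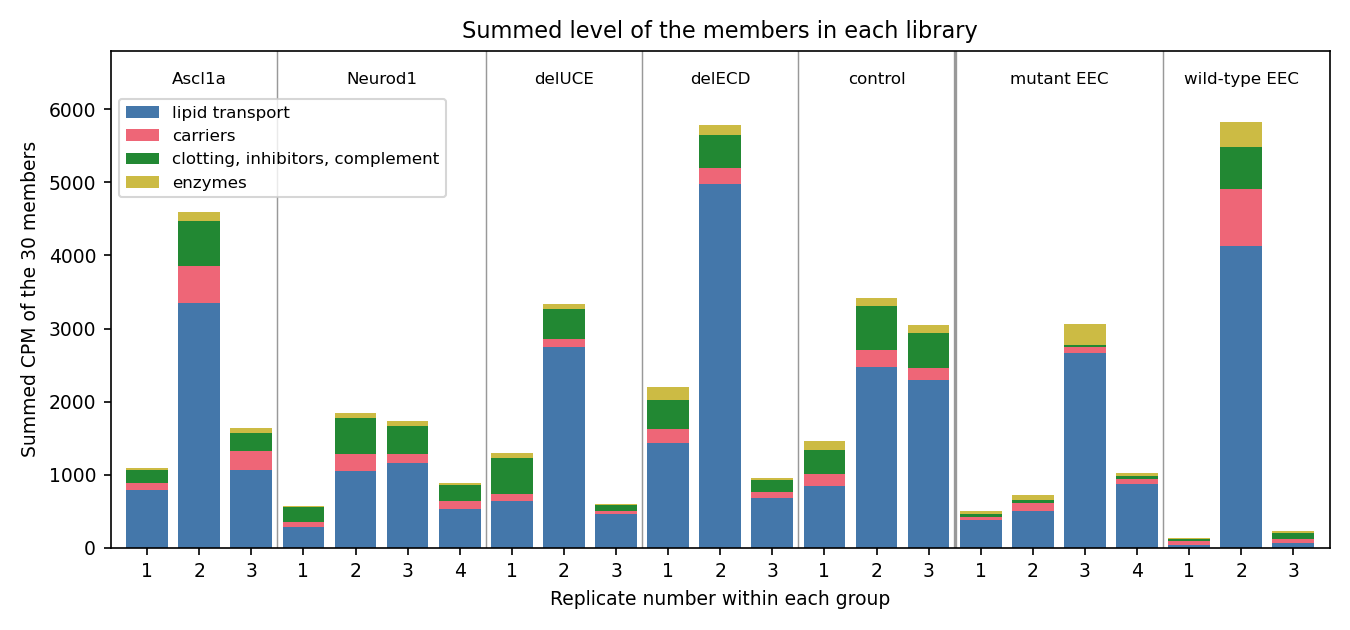
Summed CPM of the 30 members in each library, stacked by role, with replicate numbers on the x axis and groups separated by lines. Replicate 2 is the tallest bar of each endoderm group, from 1846 CPM with Neurod1 to 5783 CPM with delECD, and wild-type EEC replicate 2 reaches 5826 CPM beside 137 and 229 CPM in the other wild-type EEC libraries.

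Among the lipid transport genes, apoc2, which encodes the cofactor of lipoprotein lipase, took the most reads over the 23 libraries. It was at 237, 880 and 384 CPM in Ascl1a endoderm, 62.8, 191, 336 and 147 CPM with Neurod1, 84.9, 1016 and 137 CPM with delUCE, 448, 2818 and 172 CPM with delECD and 249, 700 and 965 CPM in controls. The groups overlapped, and the highest library of each group other than Neurod1 and control was replicate 2. The gene apoa2, for the second protein of high-density lipoprotein, was at 259, 1444 and 258 CPM in Ascl1a endoderm, 45.2, 235, 355 and 88.4 CPM with Neurod1, 132, 1024 and 90.1 CPM with delUCE, 395, 1262 and 132 CPM with delECD and 218, 803 and 749 CPM in controls, and again every group overlapped the controls. Its neighbour apoc1, the gene of another exchangeable apolipoprotein, was at 2.47, 75.6 and 5.95 CPM in Ascl1a endoderm, 4.51, 7.82, 38.8 and 14.3 CPM with Neurod1, 14.4, 92.1 and 6.72 CPM with delUCE, 10.6, 17.9 and 8.08 CPM with delECD and 2.10, 11.9 and 9.42 CPM in controls. In the RefSeq gene order the genes apoeb, apoc1, apoc4, apoa2 and apoc2 follow one another.

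Both copies of apolipoprotein A-I, the main protein of high-density lipoprotein, were detected throughout the endoderm. The level of apoa1a was 75.7, 386 and 116 CPM in Ascl1a endoderm, 48.6, 174, 192 and 158 CPM with Neurod1, 147, 273 and 128 CPM with delUCE, 229, 340 and 177 CPM with delECD and 41.2, 203 and 172 CPM in controls. For apoa1b it was 150, 270 and 227 CPM in Ascl1a endoderm, 75.2, 232, 153 and 59.5 CPM with Neurod1, 132, 275 and 60.5 CPM with delUCE, 187, 364 and 113 CPM with delECD and 181, 481 and 196 CPM in controls. Control libraries overlapped every transgenic group for both copies. In the RefSeq annotation rnf214 overlaps apoa1a, and the library kit does not mark strand, so reads of the shared stretch cannot be assigned to either gene. The overlap was not checked in the annotation used for counting, so the level of apoa1a may be off in either direction.

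The B apolipoproteins are the structural proteins of very-low-density and low-density particles. The level of apobb.1 was 58.0, 255 and 71.0 CPM in Ascl1a endoderm, 44.4, 214, 82.9 and 53.1 CPM with Neurod1, 122, 67.2 and 38.7 CPM with delUCE, 169, 176 and 76.5 CPM with delECD and 160, 258 and 196 CPM in controls. All 3 delUCE libraries were below all 3 controls, and Neurod1 replicates 1, 3 and 4 were too. Its paralog apoba was patchy, at 14.4, 41.1 and 0.595 CPM in Ascl1a endoderm, 0.563, 2.55, 3.73 and 4.60 CPM with Neurod1, 1.88, 0.247 and 4.45 CPM with delUCE, 0.217, 0.259 and 5.86 CPM with delECD and 0, 10.0 and 6.16 CPM in controls. Only Ascl1a replicates 1 and 2 exceeded the highest control.

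Of the carriers, the vitronectin gene ENSDARG00000053831, for an adhesive plasma glycoprotein, took the most reads in endoderm and had the smallest within-group SD of the members tested, 0.45 of log2(CPM + 1). It was at 59.21, 98.7 and 109 CPM in Ascl1a endoderm, 59.0, 114, 63.2 and 67.4 CPM with Neurod1, 54.8, 57.2 and 26.6 CPM with delUCE, 93.2, 103 and 56.7 CPM with delECD and 97.4, 112 and 80.0 CPM in controls. Here the 3 delUCE libraries lay below the 3 controls. The other vitronectin gene, ENSDARG00000055388, was at 0, 7.30 and 4.07 CPM in Ascl1a endoderm, 0.402, 1.02, 0 and 0.545 CPM with Neurod1, 0.188, 1.98 and 0.182 CPM with delUCE, 1.302, 1.68 and 0.396 CPM with delECD and 0.976, 0.174 and 0.906 CPM in controls. The transferrin gene tfa was at 29.9, 291 and 106 CPM in Ascl1a endoderm, 2.09, 20.0, 20.2 and 4.54 CPM with Neurod1, 8.76, 20.0 and 5.81 CPM with delUCE, 24.6, 78.7 and 6.34 CPM with delECD and 26.9, 54.9 and 48.1 CPM in controls. All Neurod1 and delUCE libraries were below all controls, and 2 of 3 Ascl1a libraries were above them. The precursor of alpha-1-microglobulin and bikunin, ambp, lay between 2.83 and 82.0 CPM over the 16 libraries and ceruloplasmin, cp, between 1.27 and 48.9 CPM. Transthyretin, ttr, stayed at or below 1.91 CPM and the vitamin D-binding protein gene gc at or below 0.664 CPM.

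In the clotting and complement class, c3a.1, a gene for complement C3, took the most reads in endoderm, at 146, 283 and 203 CPM in Ascl1a endoderm, 75.6, 370, 272 and 140 CPM with Neurod1, 389, 203 and 31.8 CPM with delUCE, 296, 258 and 95.0 CPM with delECD and 297, 490 and 401 CPM in controls. All 3 Ascl1a and all 3 delECD libraries were below the lowest control, and the Neurod1 and delUCE libraries overlapped the controls. The RefSeq order places c3a.5 beside it, and reads that fit several C3 copies may be lost. Antithrombin, serpinc1, lay between 3.64 and 51.1 CPM and alpha-1-antitrypsin, serpina1, between 0.396 and 56.2 CPM. Prothrombin, f2, and plasminogen, plg, were at most at 22.6 and 10.1 CPM, both in Ascl1a replicate 2. The fibrinogen chains are described below.

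Among the enzymes, most reads in endoderm went to hgd, for the homogentisate dioxygenase of tyrosine breakdown, at 12.2, 53.1 and 20.4 CPM in Ascl1a endoderm, 2.01, 36.5, 55.6 and 12.7 CPM with Neurod1, 37.9, 31.4 and 6.99 CPM with delUCE, 131, 56.8 and 5.63 CPM with delECD and 80.0, 71.8 and 63.1 CPM in controls. Every library with a transgene other than delECD replicate 1 was below the lowest control. The last enzyme of that pathway, fumarylacetoacetase (fah), was at 14.1, 13.3 and 23.8 CPM in Ascl1a endoderm, 10.1, 33.9, 15.0 and 10.2 CPM with Neurod1, 22.2, 11.8 and 7.53 CPM with delUCE, 32.3, 15.9 and 16.1 CPM with delECD and 36.0, 39.6 and 27.5 CPM in controls. Only Neurod1 replicate 2 and delECD replicate 1 reached the range of the controls. Neither hgd nor fah passed in a transgene comparison (edgeR FDR 0.574 or more). The share of all genes with such patterns over all transgenic libraries was not counted, and the shares by group are given below. The first dioxygenase of the pathway, hpda, ranged between 0 and 16.6 CPM, and urate oxidase (uox) between 0 and 45.2 CPM. Tryptophan dioxygenase (tdo2a) was at 2.71, 0.508 and 2.78 CPM in Ascl1a endoderm, 1.53, 1.62, 0.695 and 0.182 CPM with Neurod1, 1.51, 3.30 and 4.27 CPM with delUCE, 9.82, 12.6 and 2.85 CPM with delECD and 3.83, 2.87 and 1.51 CPM in controls, and each group overlapped the controls. The gene cyp7a1, for the rate-limiting enzyme of bile acid synthesis, had 0 counts in 13 of 16 endoderm libraries and reached 1.23 CPM in delECD replicate 2.

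The gain-of-function comparisons ask how liver genes of the 52 hpf endoderm change with each transgene. With edgeR's quasi-likelihood test over 18911 genes and a false discovery rate (FDR) of 0.1, no member passed in any of them: 0 of 26 members tested with Ascl1a (0.0159% of all genes passed), 0 of 26 with Neurod1 (0.0423%), 0 of 26 with delUCE (0.0582%) and 0 of 26 with delECD (0.0423%). At an unadjusted p under 0.05 the counts were 3, 4, 4 and 1, where 6.11%, 4.25%, 7.11% and 6.13% of all genes had such a p. The joint test of any difference among the 5 groups also passed 0 of 26 members, beside 0.159% of all genes, with 5 members at an unadjusted p under 0.05, where 5.17% of all genes were. The members left out by the filter on low counts were ttr, cps1, cyp7a1 and gc. DESeq2 passed 1 member with Neurod1 and 1 with delUCE, fgg in both, where 0.557% and 1.18% of all genes passed, 0 with Ascl1a and delECD, and 3 in the joint test (tfa, f2 and tdo2a), where 1.71% of all genes passed.

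With Ascl1a, the median log2 fold change of the 26 members was 0.69, with 16 members above 0 and 10 below, against -0.02 over all genes. It was -0.60 without Ascl1a replicate 2. The members with an unadjusted p under 0.05 were f2 (log2 fold change 2.76 ± 1.26, SE; FDR 0.802), cp (2.44 ± 0.98; FDR 0.802) and fgg (1.97 ± 0.80; FDR 0.802) in edgeR. Prothrombin, f2, was at 1.65, 22.6 and 2.78 CPM in Ascl1a endoderm, against 0.300, 1.304 and 2.30 CPM in controls, and the ceruloplasmin gene cp at 3.65, 48.9 and 7.83 CPM, against 2.10, 4.87 and 3.93 CPM in controls. Replicate 2 was the highest of the Ascl1a libraries for all 3 genes, and without it their log2 fold changes were 0.74, 0.63 and 0.13.

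With Neurod1, the median over the members was -1.03, with 5 above 0 and 21 below, against 0.00 over all genes. Unadjusted p-values under 0.05 went to tfa (log2 fold change -1.92 ± 0.85, SE; FDR 1), apoa1b (-1.19 ± 0.56; FDR 1), fah (-1.01 ± 0.47; FDR 1) and, in the other direction, fgg (edgeR). With delUCE, the median was -0.68, with 8 above 0 and 18 below, against 0.02 over all genes, and it was -1.74 without delUCE replicate 2. The members concerned were apobb.1 (-1.48 ± 0.65; FDR 0.665), fah (-1.35 ± 0.52; FDR 0.574), ENSDARG00000053831 (-1.11 ± 0.36; FDR 0.473) and again fgg in the other direction (edgeR). With delECD, the median was 0.34, with 15 above 0 and 11 below, against -0.03 over all genes, and fgg alone had such a p. Without delECD replicate 2 that median was -0.47. The 4 comparisons share their 3 control libraries. Counted by overlap, 3 of 26 members had all Ascl1a libraries on 1 side of the controls (c3a.1, hgd and fah, all below), as had 14.1% of all genes. With Neurod1 these were 4 of 26 (fgg above, and tfa, fgb and hgd below), beside 8.14%, with delUCE 6 of 26 (fgg above, and apobb.1, tfa, hgd, fah and ENSDARG00000053831 below), beside 10%, and with delECD 2 of 26 (fgg above and c3a.1 below), beside 18.4%. Differences between the transgenic groups themselves were tested only in the joint test.

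**Figure D3:**
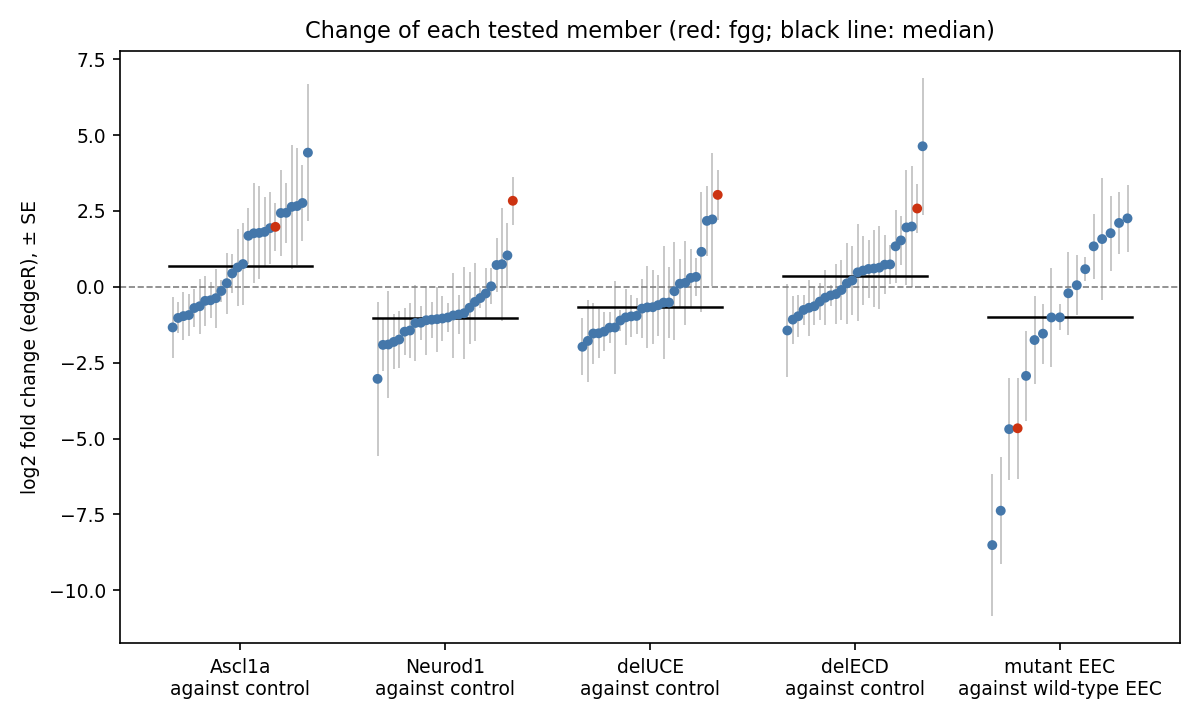
Log2 fold change of each tested member (points, ± SE from edgeR) in the 4 transgene comparisons and in mutant against wild-type EECs, sorted within each comparison, with black lines at the medians of 0.69, -1.03, -0.68, 0.34 and -1.01. The red point, fgg, is the highest member with Neurod1 and delUCE, and none of the points passed an FDR of 0.1.

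Fibrinogen is assembled from alpha, beta and gamma chains, encoded by fga, fgb and fgg, which hepatocytes normally make together. In these libraries fgg departed from the other chains. It was at 2.35, 102 and 21.4 CPM in Ascl1a endoderm, 111, 54.8, 68.5 and 70.4 CPM with Neurod1, 85.5, 144 and 38.2 CPM with delUCE, 57.0, 80.5 and 62.0 CPM with delECD and 7.13, 11.3 and 12.9 CPM in controls. All 10 libraries with a form of Neurod1 were above all 3 controls, and the Ascl1a libraries lay on both sides of them. It was the only one of the 26 members tested with that pattern, which 1.26% of all genes showed, and no member had all 10 libraries below the controls, which 0.571% of all genes showed. The same 10 libraries were above the controls for the summed level of the 6 bile duct genes, at 1734 to 3378 CPM against 764 to 1162 CPM, and of the 14 enteroendocrine genes, at 128 to 830 CPM against 42.4 to 114 CPM. In each endoderm library 5 or 6 of the bile duct genes exceeded 3 counts. Of the 5 bile duct genes tested, 1 passed with each form of Neurod1 in edgeR. In edgeR, 0.0423%, 0.0582% and 0.0423% of all genes passed for Neurod1, delUCE and delECD. The bile duct gene that passed in DESeq2 was anxa4 with each form. The median log2 fold changes of the 5 bile duct genes were 0.036, 0.506 and -0.267 with Neurod1, delUCE and delECD (edgeR). The sums were thus above the controls although the median gene of the list changed little with Neurod1 and fell with delECD. The 6 bile duct genes also summed to 4852 CPM or more in each EEC library, above every endoderm library. Their sum therefore does not tell bile duct cells from EECs. The part of bile duct or enteroendocrine cells in the level of fgg was not tested.

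The log2 fold change of fgg was 2.83 ± 0.80 with Neurod1 (SE; FDR 0.624), 3.03 ± 0.83 with delUCE (FDR 0.359) and 2.58 ± 0.81 with delECD (FDR 0.75) in edgeR, so none passed. Over all alternatives the FDR lay between 0.0347 and 1 with Neurod1, between 0.0194 and 0.669 with delUCE and between 0.136 and 0.992 with delECD. DESeq2 gave FDRs of 0.0347 with Neurod1, 0.0194 with delUCE and 0.156 with delECD. In the mean of the 3 Neurod1 forms against controls, a comparison chosen after the values were seen, the log2 fold change was 2.81 ± 0.75 (edgeR FDR 0.316, DESeq2 FDR 0.00301, and up to 0.688 over the alternatives). In that comparison 0 of 26 members passed in edgeR, beside 0.074% of all genes, with 4 at an unadjusted p under 0.05, where 7.77% of all genes were, and DESeq2 passed fgg alone, beside 1.23% of all genes. The fold change of fgg in that comparison stayed between 2.61 and 2.98 on the log2 scale when any 1 library was left out.

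The alpha and beta chains did not share this pattern. In Ascl1a endoderm fga was at 1.18, 28.2 and 0.198 CPM and fgb at 10.1, 74.2 and 5.85 CPM. The level of fga was 0.0805, 1.79, 4.30 and 0.182 CPM with Neurod1, 0.188, 7.92 and 0.182 CPM with delUCE, 2.496, 9.38 and 1.03 CPM with delECD and 0.526, 3.04 and 5.01 CPM in controls. For fgb it was 0.241, 7.14, 6.70 and 1.03 CPM with Neurod1, 1.41, 14.9 and 0.998 CPM with delUCE, 9.98, 16.4 and 2.61 CPM with delECD and 7.44, 8.26 and 7.73 CPM in controls. Libraries with a form of Neurod1 lay on both sides of the controls for each chain, although the 4 Neurod1 libraries were all below the controls for fgb. The ratio of fgg counts to the counts of fga and fgb together was 0.896, 1.00 and 1.01 in the 3 controls, and also 0.995 in Ascl1a replicate 2 and 1.03 in wild-type EEC replicate 2, the libraries with the highest fga and fgb. In the 10 libraries with a form of Neurod1 it lay between 3.12 and 346, with a median of 11.7. The highest, in Neurod1 replicate 1, set 1385 fgg counts against 1 fga and 3 fgb counts, at or under the floor. The next highest, 58.15, 53.4 and 32.4, also had fga at 3 or fewer counts, so the large ratios are imprecise. The ratio of fgg to the other chains was computed after the values were seen and was not tested. In the remaining Ascl1a libraries it was 0.208 in replicate 1 and 3.54 in replicate 3. In the RefSeq order fgg lies between plrg1 and lrata, with no overlapping gene.

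**Figure D4:**
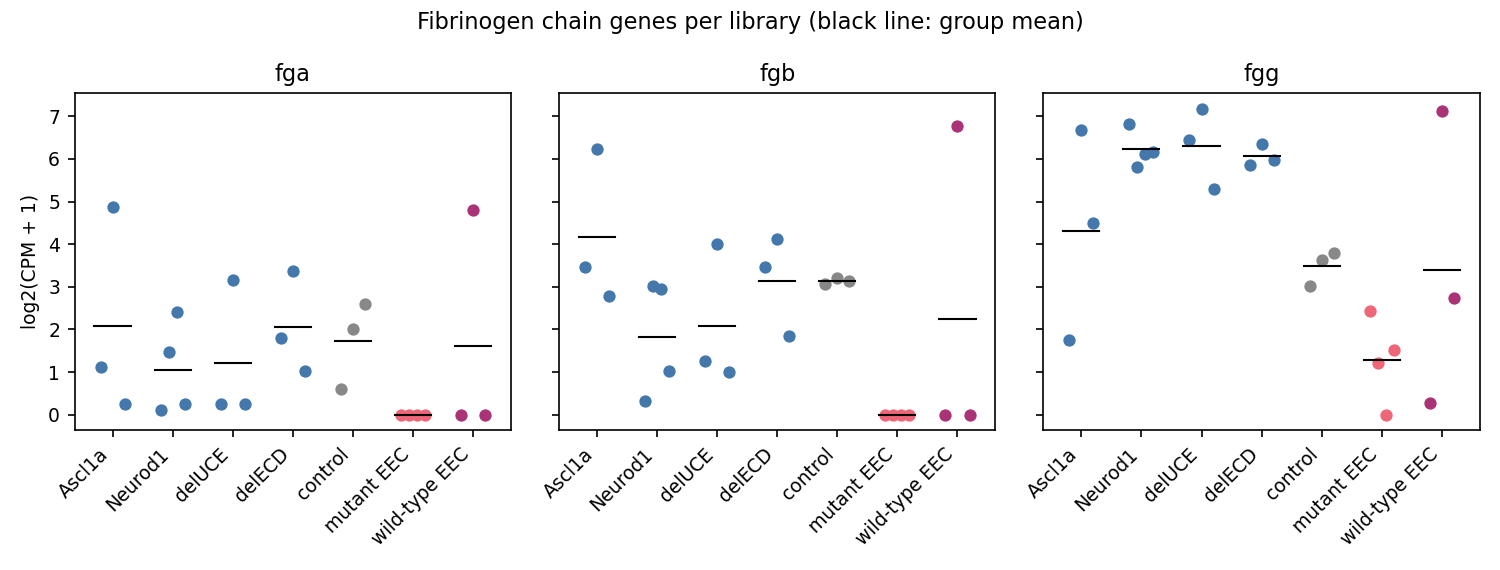
Level of the fibrinogen chain genes fga, fgb and fgg in every library, as log2(CPM + 1), by group, with the group mean of the log2 values as a black line. For fgg all 10 libraries with Neurod1, delUCE or delECD lie above the 3 controls, at 38.2 to 144 CPM, whereas for fga all 3 of these groups overlap the controls and for fgb delUCE and delECD do, with Neurod1 below them.

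Further liver genes, 18 secreted or metabolic genes outside the members, passed in none of the 4 transgene comparisons (0 of 14 tested each, edgeR, with 2, 1, 3 and 0 at an unadjusted p under 0.05 with Ascl1a, Neurod1, delUCE and delECD), and in DESeq2 0 passed in each, with 4, 1, 4 and 0 at an unadjusted p under 0.05. The DESeq2 joint test passed 3 of 16 of them (fetub, c5 and asgr1a), beside 1.71% of all genes, where the edgeR joint test passed 0. Their sum was 577 to 782 CPM with Ascl1a, 131 to 575 CPM with Neurod1, 150 to 317 CPM with delUCE, 203 to 536 CPM with delECD and 440 to 530 CPM in controls. All Ascl1a libraries were thus above, and all delUCE libraries below, the controls. Of all single genes, 14.1% with Ascl1a and 10% with delUCE had all libraries on 1 side of these controls, above or below. The share among sums of 18 genes was not counted. The sums were not tested. A list of 14 liver and foregut transcription factors also passed in none in edgeR (0 of 14 each, with 1, 1, 2 and 2 at an unadjusted p under 0.05), whereas DESeq2 passed 1 with Ascl1a and 1 with delUCE, prox1a in both. The smallest p-values of that list went to prox1a, a factor of early hepatoblasts that is also active in other tissues, with log2 fold changes of 2.03 ± 0.43 with Ascl1a (FDR 0.633), 1.33 ± 0.40 with Neurod1 (FDR 0.746), 1.77 ± 0.43 with delUCE (FDR 0.22) and 1.45 ± 0.42 with delECD (FDR 0.75) in edgeR. The early hepatic factor hhex did not exceed 3.43 CPM in any endoderm library.

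In the sorted EECs, 10 members exceeded 3 counts in all 7 libraries: apoa1a, apoa1b, apoa2, apobb.1, apoc2, serpinc1, tdo2a, fah, cyp7a1 and ENSDARG00000053831. Wild-type EEC replicate 2 differed from the other EEC libraries, with 29 members above 3 counts against 14 to 17 in each of the others. A total of 7 members exceeded 3 counts in that library alone, namely fga, fgb, serpina1, ambp, c3a.1, hpda and gc. Of the 30 members, 22 were highest there, as were 12.1% of the genes tested in EECs. The 30 include 13 members that the filter on low counts left out of the test, so these shares rest on unlike sets. The hepatocyte marker fabp10a was at 117 CPM in it, against 0 in all 4 mutant libraries, 0.648 and 0 CPM in the other wild-type libraries and no more than 5.76 CPM in endoderm. Transferrin, tfa, was at 557 CPM in it and at most at 2.81 CPM in the other 6 EEC libraries, and fgb was at 108 CPM and at 0 in all others. The urea cycle gene cps1 was the one member not detected in it, with 3, 0, 1 and 1 counts in mutant EECs and 1, 0 and 7 counts in wild-type EECs. The 18 further liver genes summed to 1274 CPM there and to 107 to 356 CPM in the other 6.

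The markers of other cell types gave the following values beside this. The 9 exocrine pancreas genes, of which 4 exceeded 3 counts in mutant replicate 2, 1 in wild-type replicate 3 and all 9 in each other EEC library, summed to 55.5 to 593 CPM in mutant EECs, to 474 CPM in wild-type EEC replicate 2 and to 506 and 2.47 CPM in wild-type replicates 1 and 3. The 12 enterocyte genes summed to 2684 to 6048 CPM in mutant EECs, the highest in mutant replicate 3, to 3976 CPM in wild-type EEC replicate 2 and to 2292 and 2432 CPM in wild-type replicates 1 and 3. The 14 enteroendocrine genes summed to 19535 CPM or more in each EEC library and to at most 830 CPM in endoderm. Their part in the levels of the members was not tested.

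**Figure D5:**
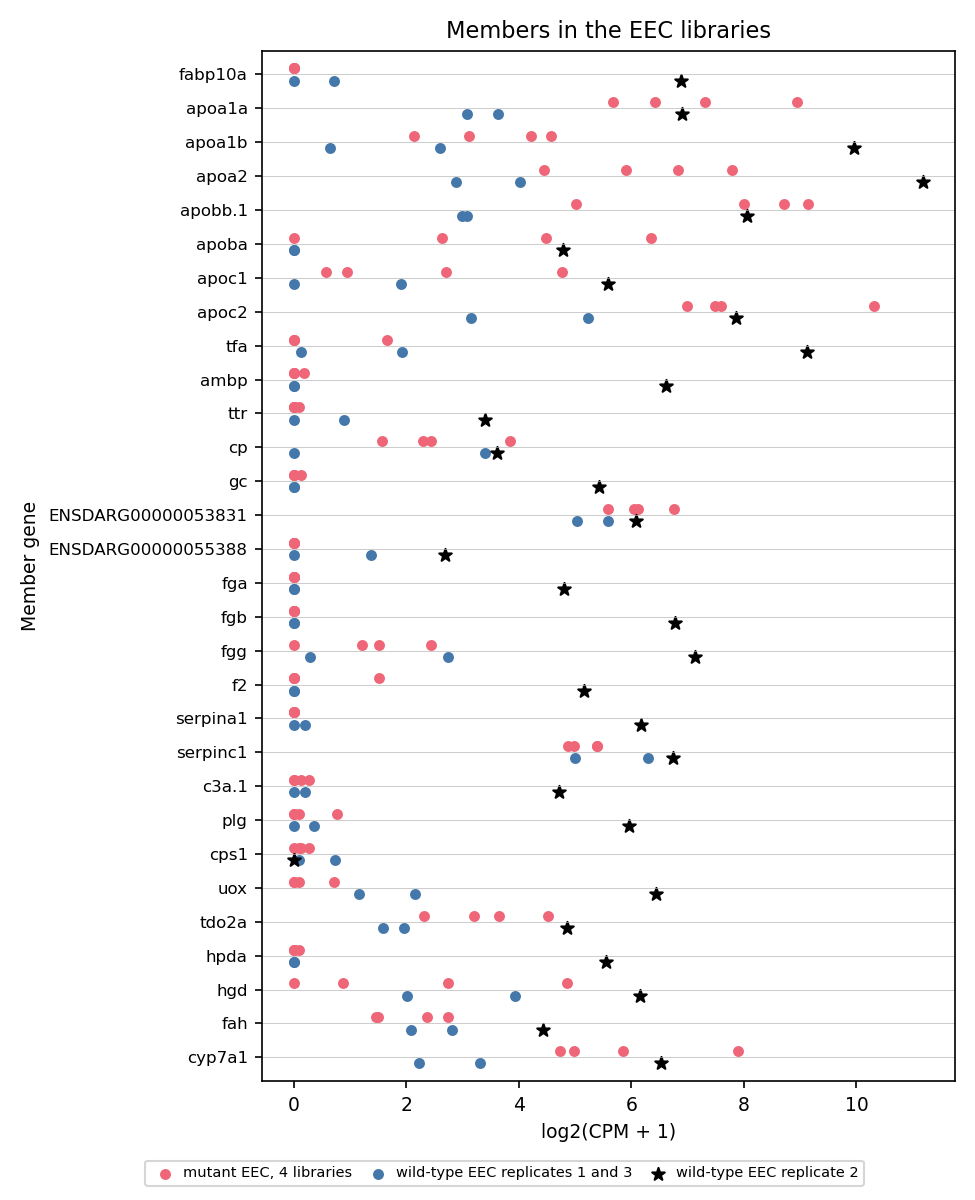
Level of each member in the EEC libraries, as log2(CPM + 1), with mutant libraries in red above wild-type libraries in blue and wild-type replicate 2 as a black star. The star is the rightmost point for 22 of the 30 members, and fga, fgb, serpina1, ambp, c3a.1, hpda and gc exceed 3 counts in that library alone.

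Summed over the members, the level was 505, 729, 3068 and 1025 CPM in mutant EECs (1332 ± 1177, SD, n = 4) and 137, 5826 and 229 CPM in wild-type EECs (2064 ± 3258, SD, n = 3). The wild-type libraries other than replicate 2 were below all mutant libraries, and their mean was 183 CPM. The share of all genes with this order was not counted, and the sums were not tested. The comparison of mutant with wild-type EECs addresses the loss of the conserved element from the endogenous protein. In edgeR 0 of 17 members tested passed, where 0.0186% of all genes passed. At an unadjusted p under 0.05 were 5 members, where 3.7% of all genes were. The filter on low counts left out the other 13 members. DESeq2 also passed 0, but gave a p-value for only 15 members. It gave no FDR for uox, tfa and apoa1b, which were among those 5 members in edgeR, so they could not pass there. The median log2 fold change of the 17 was -1.01, with 7 above 0 and 10 below, against 0.02 over all genes. Without wild-type replicate 2 it was 2.21, with 12 above 0 and 5 below, and again no member passed.

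Lipid transport genes took 68.8% to 86.9% of the members' reads in mutant EECs and, in wild-type EECs, 70.8% in replicate 2, 29.9% in replicate 1 and 29.4% in replicate 3. The level of apoa1a was 50.1, 84.5, 494 and 158 CPM in mutant EECs, against 11.4, 118 and 7.49 CPM in wild-type EECs, and that of apoa1b 3.41, 7.65, 22.8 and 17.7 CPM, against 5.04, 988 and 0.569 CPM. The B apolipoprotein gene apobb.1 was at 31.5, 256, 560 and 420 CPM in mutant EECs, against 6.91, 264 and 7.40 CPM in wild-type EECs, and apoba at 0, 5.23, 80.0 and 21.3 CPM, against 0, 26.6 and 0 CPM. For apoc2 the values were 177, 126, 1264 and 193 CPM in mutant EECs and 7.92, 231 and 36.6 CPM in wild-type EECs, and for apoc1 0.488, 0.934, 26.1 and 5.55 CPM and 2.74, 47.0 and 0 CPM. For apoa1a, apobb.1 and apoc2 every mutant library was above wild-type replicates 1 and 3, and replicate 2 lay within the mutant range. How many of all genes showed this order without replicate 2, which stood apart by its member values, was not counted. Mutant replicate 3 was the highest mutant library for all 6 of these genes. It also held the highest mutant sum of the enterocyte, enteroendocrine, exocrine pancreas and bile duct genes. The same held for the yolk syncytial layer, endoderm and gut epithelium, and further liver genes. It did not for the liver and foregut transcription factors or for the skin, muscle, erythrocyte, and endothelial and leukocyte genes. The part of any of these cells in the levels was not tested.

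Members with an unadjusted p under 0.05 in mutant against wild-type EECs were uox, tfa, fgg, apoa1b and serpinc1, all with negative values. For fgg the level was 4.39, 1.31, 0 and 1.85 CPM in mutant EECs, against 0.216, 139 and 5.69 CPM in wild-type EECs. Its log2 fold change was -4.66 ± 1.66 (SE), and -0.62 at the weakest when 1 library was left out. Outside wild-type EEC replicate 2, fga and fgb had 0 counts in every EEC library, and fgg had up to 63. The urate oxidase gene uox was at 0.0697, 0, 0 and 0.647 CPM in mutant EECs, against 3.46, 85.4 and 1.23 CPM in wild-type EECs, and tfa at 0, 2.15, 0 and 0 CPM, against 2.81, 557 and 0.0949 CPM. For uox alone of the 17 members the groups did not overlap, as for 6.65% of all genes, and for tfa they did. The counts of uox were 1, 0, 0 and 7 in mutant EECs and 48, 1000 and 13 in wild-type EECs. It passed the filter on low counts through the wild-type libraries alone, so its lack of overlap follows in part from that filter. Antithrombin, serpinc1, was at 28.3, 41.0, 30.7 and 40.8 CPM in mutant EECs and at 31.0, 105 and 77.3 CPM in wild-type EECs, with a log2 fold change of -1.01 ± 0.43 (SE; edgeR FDR 1). In the RefSeq annotation it overlaps zbtb37, and without strand, reads of the shared stretch cannot be assigned to either gene. The overlap was not checked in the annotation used for counting, so the level of serpinc1 may be off in either direction. For apoa1b the log2 fold change was -4.69 ± 1.69 (edgeR FDR 1) and 2.21 without wild-type replicate 2. The gene cyp7a1 was at 30.7, 56.8, 236 and 25.5 CPM in mutant EECs, against 3.67, 90.9 and 8.92 CPM in wild-type EECs, and the groups overlapped through wild-type replicate 2. The vitronectin gene ENSDARG00000053831 was at 46.8, 107, 68.7 and 65.2 CPM in mutant EECs and 31.8, 66.8 and 46.9 CPM in wild-type EECs, whereas ENSDARG00000055388 was at 0 in all mutant EECs and at 1.58, 5.47 and 0 CPM in wild-type EECs.

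Wild-type EECs were also set against control endoderm, to place the level of liver genes in the gut sort beside that in the trunk endoderm. Tissue, stage, reporter, dissociation and heat shock differ together between these groups and cannot be told apart. Between them 38.1% of all genes passed in either direction (edgeR, FDR 0.1). The share of all genes without overlap between these groups was not counted, so the lack of overlap given below cannot be set against it. Of 28 members tested, 2 were higher in wild-type EECs, where 16.1% of all genes were, and 4 were lower, where 22.0% were (edgeR, FDR 0.1). The median log2 fold change of the members was 1.08, against -0.19 over all genes. Without wild-type EEC replicate 2, 1 member was higher, beside 15.1% of all genes, and 15 were lower, beside 23.1%, with a median of -3.94, against -0.34 over all genes.

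The members that rose were cyp7a1 and fabp10a. The bile acid gene cyp7a1 was at 3.67, 90.9 and 8.92 CPM in wild-type EECs, against 0, 0 and 0.181 CPM in control endoderm (FDR 0.00324, and 0.0102 without wild-type EEC replicate 2, edgeR). All wild-type EEC libraries were above all controls. The hepatocyte marker fabp10a was at 0.648, 117 and 0 CPM in wild-type EECs, against 0, 0 and 0.181 CPM in control endoderm, with an edgeR FDR of 0.035 that was 0.525 without wild-type EEC replicate 2. It was 0.104 without control replicate 1 and also without control replicate 2. No fold change is given for either gene, since the controls had at most 3 counts each.

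The members that fell were c3a.1, fah, ENSDARG00000053831 and apoc2. Complement gene c3a.1 was at 0.144, 25.2 and 0 CPM in wild-type EECs, against 297, 490 and 401 CPM in control endoderm, a log2 fold change of -5.55 ± 1.36 (SE; edgeR FDR 0.00436). The groups did not overlap, and without replicate 2 the wild-type EEC libraries held 2 and 0 counts (FDR 5.95e-06). The fumarylacetoacetase gene fah was at 5.98, 20.5 and 3.23 CPM, against 36.0, 39.6 and 27.5 CPM in control endoderm (-1.79 ± 0.67, SE; edgeR FDR 0.0487). The vitronectin gene ENSDARG00000053831 was at 31.8, 66.8 and 46.9 CPM, against 97.4, 112 and 80.0 CPM in control endoderm (-0.99 ± 0.40, SE; edgeR FDR 0.0652), and apoc2 at 7.92, 231 and 36.6 CPM, against 249, 700 and 965 CPM (-2.80 ± 1.21, SE; edgeR FDR 0.0853). For fah, ENSDARG00000053831 and apoc2 all wild-type EEC libraries were below all controls, and without control replicate 2 none of the 3 passed (edgeR FDR 0.12, 0.188 and 0.146). The same held without wild-type EEC replicate 1 (edgeR FDR 0.155, 0.219 and 0.212) and without wild-type EEC replicate 3 (0.166, 0.136 and 0.229), and apoc2 did not pass without control replicate 3 (0.19).

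Without wild-type EEC replicate 2, the members that fell were apoa1b, apoa2, apobb.1, apoa1a, apoba, tfa, ambp, serpina1, fga, fgb and f2, beside the 4 above. Of these, ambp was at 0 and 0 CPM in wild-type EEC replicates 1 and 3, and at 96.5 CPM in replicate 2, against 27.2, 70.8 and 33.8 CPM in control endoderm. The level of apoa1b was 5.04 and 0.569 CPM in replicates 1 and 3, and 988 CPM in replicate 2, against 181, 481 and 196 CPM in control endoderm. Antithrombin, serpinc1, which did not pass with or without that library, was at 31.0, 105 and 77.3 CPM in wild-type EECs and 17.3, 51.1 and 32.7 CPM in control endoderm.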

How the data were processed

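The authors trimmed the reads, aligned them to GRCz11 (Ensembl release 92) with STAR 2.5.4b and counted reads per gene with STAR. The deposited values are these raw counts, 1 file per library. Libraries were made from 1000 to 2000 GFP+ or 2000 to 4000 dsred+ cells by the Smart-seq2 protocol with 13 PCR cycles. They were read as 75-base single ends without molecular identifiers, so that the detection floor covers counting error only. The SDs and SEs given here include the spread between libraries. The protocol text gives the endoderm age in days, and the age label, 52 hpf, was used. The paper also credits 3 wild-type 4 dpf controls to another deposit, which was not analysed here.

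Gene names were matched for 29194 of 31902 features, and neighbouring genes were read from RefSeq (GRCz12tu), without coordinates. The members and gene lists were chosen with earlier results of these data known. CPM values use 1 TMM normalisation of the 23 libraries (edgeR 4.0.16, R 4.3.3), except those of the transgene features, which use library totals. Tests were edgeR quasi-likelihood tests after filterByExpr, with Benjamini-Hochberg adjustment over all genes tested and a threshold of 0.1, over the 16 endoderm, the 7 EEC or all 23 libraries. The SE was the fold change over the square root of F. The tests were also run on simulated data in which each gene varied independently. Those data held no shared shift of many genes in a library, as in wild-type EEC replicate 2, so they do not cover it. Values of single libraries, in some or all groups, are given for the leading member of each role, paralog pairs and members that passed in edgeR. They are also given for fabp10a, cyp7a1 and members with 3 or fewer counts throughout a tissue. Other members given by library in some or all groups (apoa2, tfa, tdo2a, f2, cp, uox, serpinc1, ambp and the fibrinogen chains) were chosen after their values were seen. Alternatives were DESeq2 1.42.0, RLE factors, no filter on low counts, a replicate block, an FDR of 0.05, only the groups compared and leaving out each library. Leaving out replicate 2 of every endoderm group, and the mean of the Neurod1 forms, were chosen after seeing the data.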

Additional observations from a re-analysis of the deposited data

Results flagged for a closer look

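Of 48 groups of 4 libraries examined on log2(CPM + 1), for the sum and for each member above 3 counts in Neurod1 endoderm or mutant EECs, 5 held a library whose gap to the nearest other library, as a share of the group's range, passed Dixon's critical value, which chance passes in about 1 in 20 groups. In Neurod1 endoderm this was apoa1a, low at 48.6 CPM in replicate 1 (0.858 of the range). In mutant EECs these were tfa, high at 2.15 CPM in replicate 2 (1.00), f2, high at 1.85 CPM in replicate 4 (1.00), plg, high at 0.697 CPM in replicate 1 (0.871), and uox, high at 0.647 CPM in replicate 4 (0.865). These 4 genes were at or under 3 counts in each of the other mutant EEC libraries. Groups of 3 libraries, which include the wild-type EECs, were not examined this way.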

How the results depend on the processing

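The count of members that passed was 0 in the 4 transgene comparisons, the joint test, the mean of the Neurod1 forms and mutant against wild-type EECs, and it was 0 whichever single library was left out (0 to 0). It was 1 with DESeq2 for Neurod1, delUCE and the mean of the forms, and 1 with only the groups compared for Neurod1 (fgg, FDR 0.0534), 3 with DESeq2 in the joint test, and 6 without a filter on low counts in mutant against wild-type EECs (fabp10a, tfa, fgb, serpina1, ambp and uox), where 0.148% of all genes passed. Of these, fgb, serpina1 and ambp exceeded 3 counts in wild-type EEC replicate 2 alone, and all 6 were highest there. In wild-type EECs against control endoderm, 6 members passed, 3 with only the groups compared, and 2 to 16 when 1 library was left out: 16 without wild-type EEC replicate 2 and 2 without control replicate 2. Single fold changes were followed only for members that passed or, outside wild-type EECs against control endoderm, had an unadjusted p under 0.05. Among these 27, 1 changed sign: apoa1b in mutant against wild-type EECs was 2.21 without wild-type EEC replicate 2. It was -5.27 at the other end of the range over left-out libraries, without wild-type EEC replicate 1. Signs of members not followed also depended on single libraries. Without wild-type EEC replicate 2, 7 members above 0 and 10 below became 12 and 5 in mutant against wild-type EECs. Without Ascl1a replicate 2, 16 above and 10 below became 11 and 15 with Ascl1a. Of 362 alternatives over 27 such fold changes, 337 kept direction and call, 18 lost the call and 6 gained it.

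Same-numbered libraries correlated at -0.448 to 0.554 in endoderm and at -0.16 to 0.0381 in EECs, with 15 of 30 and 0 of 3 pairs over 0.1. The labels do not state that same-numbered libraries were prepared together, and the main fits did not pair them. In endoderm the median was 0.0945 for the same number and -0.0673 for different numbers, where 21 of 72 pairs were over 0.1. With the replicate block, 0 members passed in the transgene and mutant comparisons and 6 in wild-type EECs against control endoderm. The block moved the median log2 fold change of the members to 0.35 with Ascl1a, -0.88 with Neurod1 and -1.09 with delUCE. With delECD it changed sign, to -0.13, with 12 members above 0 and 14 below. It was -0.12 in mutant against wild-type EECs. In wild-type EECs against control endoderm it was 0.24, with 14 above 0 and 14 below. Group means of the summed CPM, with 1 library left out, were 1368 to 3116 for Ascl1a, 1062 to 1489 for Neurod1, 950 to 2316 for delUCE, 1573 to 3989 for delECD, 2253 to 3232 for control, 753 to 1607 for mutant EECs and 183 to 3027 for wild-type EECs. Without TMM, or without apoc2, each moved by less than its SD. With 3 or 4 libraries a group, the SE of the log2 fold change was 0.33 to 2.55 over the members in the transgene comparisons, and fold changes of over 3 SE, as for fgg, did not pass in edgeR.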
